A study of Mus musculus with 4 samples.

Results

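The genes described here are 10 parts of the insulin, FoxO and mTOR nutrient signalling pathway, namely Insr, Irs1, Irs2, Foxo1, Foxo3, Sesn1, Sesn3, Deptor, Rps6kb1 and Eif4ebp1. They were picked by symbol from the pathway with no rule on their values, but earlier results of these data were known. All 10 were listed in both tables of fasting changes analysed, among 25522 genes without and 26085 genes with tetracycline, 24182 of them shared.

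The RNA came from crypts of the small intestine, labelled as epithelial cells, of male C57BL/6J mice 9 weeks old. There were 4 groups with 1 labelled sample each: fed without tetracycline, fasted for 24 hours without tetracycline, fed after 21 days of tetracycline, and fasted for 24 hours after 21 days of tetracycline. The stated question was how removing what the submitters call AKK with tetracycline, an antibiotic, changes expression in the fed and the fasted state. How many mice each sample pooled is not given in the sources used here.

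Insulin binds its receptor and, through the insulin receptor substrates, switches on PI3K and AKT. AKT phosphorylates the FoxO transcription factors, which then leave the nucleus, and it activates the kinase complex mTORC1. mTORC1 also reads amino acids, with the sestrins as brakes, and drives protein synthesis through S6 kinase and the 4E-BP repressors of translation. In a fasted animal insulin is low, FoxO factors are nuclear and mTORC1 is restrained. These switches work by phosphorylation, so transcript levels show how much message for each part is present, not whether the pathway is on.

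The whole counts behind the deposited means showed 2 fasted and 2 fed libraries in each table. They are given one by one below as normalized counts, which are reads divided by a library's size factor. In each pair, library 1 has the larger size factor. Size factors differed by up to 1.17 times without and 1.75 times with tetracycline, and the means summed to 65863261 and 65327199 normalized counts. No column says which way the fold changes run. They were read as fasted over fed from the word order in the tables' names, and every direction below rests on that. Whether the libraries of a group come from separate animals is not stated, so the authors' p-values measure the spread between these libraries, which may be technical.

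Among the 10 genes, Insr alone passed the test without tetracycline and none passed with it, at an adjusted p under 0.05 (DESeq2's Wald test with Benjamini-Hochberg adjustment, as the authors' deposited tables give it). Over all genes 2.27% were called without (1.06% higher and 1.22% lower) and 0.6% with tetracycline (0.333% and 0.267%), so 1 of 10 and 0 of 10 are counts too small to set the group apart. At an unadjusted p under 0.05 there were 3 of the 10 in each table (Insr, Irs2 and Sesn1 without tetracycline, Irs1, Sesn3 and Eif4ebp1 with it), against 10.8% and 5.34% of all tested genes. The median log2 change of the 10 was 0.19 without and 0.11 with tetracycline, against 0.01 and -0.02 over all genes tested. Insr, Irs1, Irs2, Deptor, Rps6kb1 and Eif4ebp1 had positive changes in both tables, and Foxo3, Sesn1 and Sesn3 had negative ones.

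**Figure D1:**
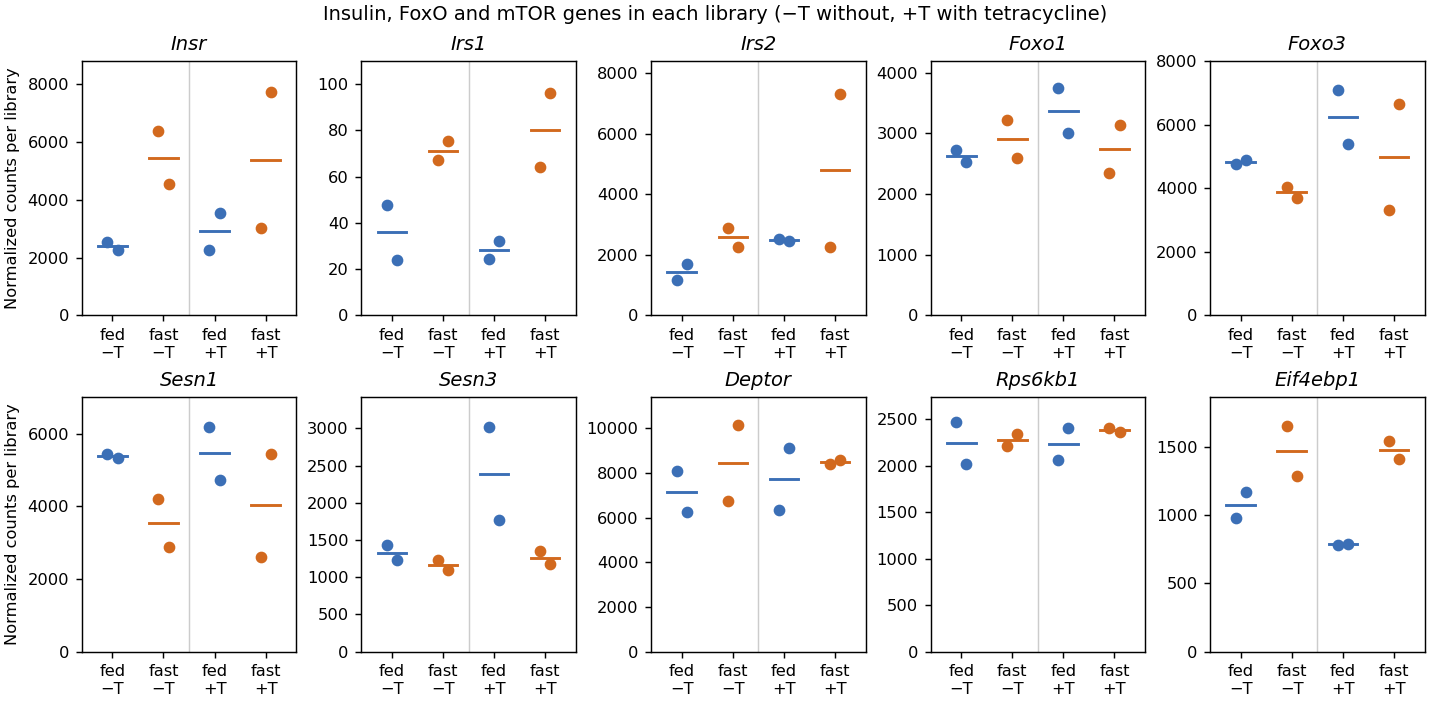
Normalized counts (y axis, linear, from 0) of each of the 10 genes in every library, by feeding state without (−T) and with (+T) tetracycline; points are single libraries and lines the means of 2. Irs1 and Eif4ebp1 have both fasted points above both fed points in each table, while the fasted points of Insr, Irs2, Sesn1 and Foxo3 lie far apart with tetracycline.

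Insr (ENSMUSG00000005534.11) encodes the insulin receptor. Without tetracycline it stood at 6391 and 4532 normalized counts in the fasted libraries and at 2532 and 2266 in the fed ones. Each fasted library thus lay above each fed library, and the fed pair lay close together. The authors' deposited table gave a rise of 1.19 on the log2 scale (SE 0.28, adjusted p 0.00265), a 2.28-fold higher level. With tetracycline the fasted libraries held 3011 and 7724 and the fed libraries 2258 and 3560 normalized counts. Here the groups overlapped, since the lower fasted library fell below the higher fed one. The change listed in the authors' deposited table was 0.88 (SE 0.56, adjusted p 0.9999), and without the second fasted library the log2 ratio would be 0.05.

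Of the receptor's relatives, Igf1r, the receptor for insulin-like growth factors, had 1172 and 1651 normalized counts fasted and 895 and 492 fed without tetracycline, and 1479 and 1015 against 484 and 823 with it. Its groups overlapped in neither table, yet it was not called (log2 changes 1.02, SE 0.36, and 0.93, SE 0.47, adjusted p 0.115 and 0.931, from the authors' deposited tables). Insrr, an orphan receptor of the same family, was called higher without tetracycline at 1.53 (SE 0.45, adjusted p 0.0356, from the authors' deposited table). Its counts there were 189 and 198 fasted against 88.3 and 45.2 fed. With tetracycline they were 374 and 114 against 157 and 169, which overlap.

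Irs1 (ENSMUSG00000055980.3) and Irs2 (ENSMUSG00000038894.8) encode the adaptors that carry the signal from the receptor to PI3K. Irs2 is the adaptor classically tied to the fasted liver, where FoxO raises it. In these crypts Irs2 was the abundant one: per kilobase of exon its mean was 318 normalized counts without tetracycline, against 5.85 for Irs1. Irs2 counted 2887 and 2273 in the fasted and 1185 and 1702 in the fed libraries without tetracycline. The groups did not overlap, and the change of 0.84 (SE 0.30, adjusted p 0.134, from the authors' deposited table) was not called. With tetracycline the fasted libraries were at 2266 and 7332 and the fed at 2537 and 2449. A single fasted library therefore carried the whole difference. The change listed in the authors' deposited table was 0.94 (SE 0.59, adjusted p 0.9999), and it turned to -0.14 when that library was left out.

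Irs1 was low. Its normalized counts were 67.0 and 75.3 fasted against 47.6 and 24.1 fed without tetracycline, and 64.2 and 96.3 against 24.4 and 32.4 with it. Both fasted libraries lay above both fed libraries in each table. The authors' deposited tables gave 0.99 (SE 0.58, adjusted p 0.586) and 1.50 (SE 0.65, adjusted p 0.733), so neither was called. Its log2 ratio stayed between 0.58 and 1.76 whichever library was left out of either table. The kit keeps no strand, and 30.9% of its exonic bases lie opposite Gm9747, so reads there cannot be assigned to Irs1 with certainty. No value of Gm9747 was used here.

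The promoters of these 2 adaptor genes are shown because their sequences share an arrangement. RefSeq promoters of GRCm38.p6 were matched by symbol for 7 of the 10 genes (8 start sites). Searched on both strands were the FoxO core TGTTTAC, the insulin response core TGTTTTG and the E-box CACGTG, which is its own reverse complement. In the lines below, the 250 bases before each start site are given 5′ to 3′ on the gene's strand (chr1:82291440-82291689, minus strand, for Irs1 and chr8:11008930-11009179, minus strand, for Irs2), with matches in capitals.
Irs1: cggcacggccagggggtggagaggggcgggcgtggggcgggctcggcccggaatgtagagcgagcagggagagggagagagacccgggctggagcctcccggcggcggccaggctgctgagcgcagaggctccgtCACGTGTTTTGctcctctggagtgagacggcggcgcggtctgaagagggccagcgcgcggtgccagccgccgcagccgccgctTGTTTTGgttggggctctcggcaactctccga
Irs2: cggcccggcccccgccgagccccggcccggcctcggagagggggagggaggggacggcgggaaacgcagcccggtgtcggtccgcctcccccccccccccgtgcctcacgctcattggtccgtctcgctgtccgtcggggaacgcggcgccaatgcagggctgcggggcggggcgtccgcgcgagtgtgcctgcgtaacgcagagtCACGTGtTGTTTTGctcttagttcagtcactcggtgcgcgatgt

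In each promoter an E-box is followed directly by the insulin response core. The 2 motifs overlap by the letters TG in Irs1 and are separated by a single base in Irs2, where the E-box begins at position -44 from the start site. Irs1 holds a second TGTTTTG at position -32. CACGTG occurs in 7.15% and TGTTTTG in 6.28% of the 32851 promoters of this length, and both occur together in 0.408%. The FoxO core TGTTTAC, in 3.65% of promoters, was found in 1 of the 8, just after a start site of Sesn1 (chr10:41810585-41810614, plus strand; 30 bases with the match in capitals).
Sesn1: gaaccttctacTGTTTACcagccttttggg
These are matches of letters, and no binding was measured.

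Foxo1 (ENSMUSG00000044167.7) and Foxo3 (ENSMUSG00000048756.12) encode the FoxO factors themselves, which turn on fasting genes when insulin is low. Foxo1 had 3212 and 2585 normalized counts fasted and 2731 and 2526 fed without tetracycline, and 2351 and 3130 against 3738 and 2996 with it. The groups overlapped in both tables, and it was the only gene of the 10 whose change differed in sign between them, at 0.14 (SE 0.26) and -0.30 (SE 0.40), as listed in the authors' deposited tables. Foxo3 counted 4035 and 3712 fasted and 4772 and 4883 fed without tetracycline. All fasted values were thus below all fed values, by a small margin, and the change of -0.32 (SE 0.25, adjusted p 0.747, from the authors' deposited table) was not called. With tetracycline Foxo3 was at 3309 and 6673 fasted and 7094 and 5409 fed, which overlap. The change was -0.33 (SE 0.49, adjusted p 0.9999, from the authors' deposited table). Its log2 ratio there ran from -0.92 to 0.09 according to which library was left out.

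The remaining family members showed no call. Foxo4 had changes of 0.31 (SE 0.25) and 0.01 (SE 0.35), and Foxo6 0.26 (SE 0.52) and -0.61 (SE 0.53), as listed in the authors' deposited tables. Among 22 genes listed as FoxO targets from textbook knowledge, 21 were tested in each table. Of these, 3 rose and 0 fell without tetracycline, and 1 rose and 0 fell with it, where 1.06% and 0.333% of all genes were called higher. The median log2 change of the list was 0.36 and 0.18.

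Pdk4, the kinase that shuts pyruvate out of oxidation in fasting, rose in both tables, by 2.27 (SE 0.38, adjusted p 7.82e-07) and 2.90 (SE 0.62, adjusted p 0.00111), as listed in the authors' deposited tables. Its libraries held 12575 and 13634 normalized counts fasted against 1593 and 3825 fed, and with tetracycline 11342 and 40913 against 3425 and 3596. The 40913 weighed on the second rise, whose log2 ratio was 1.69 without that library. Without the lower fed library the first was 1.78, and without the higher 3.04. Pck1 and G6pc, the enzymes that begin and end gluconeogenesis, rose without tetracycline by 1.70 (SE 0.41, adjusted p 0.00289) and 1.46 (SE 0.41, adjusted p 0.0206), as listed in the authors' deposited table. With tetracycline their changes were 2.32 (SE 0.78) and 1.81 (SE 0.72) and were not called (adjusted p 0.254 and 0.584, from the authors' deposited table). G6pc had 11268 and 4590 normalized counts fasted against 2212 and 3550 fed, and with tetracycline 2025 and 10836 against 1481 and 2187, where the groups overlapped. Its log2 ratio was 0.67 without the first fasted library of the first table and 0.14 without the second of the other. Pck1 had 45242 and 40304 fasted against 7021 and 19372 fed without tetracycline, and its log2 ratio was 1.14 to 2.61 with 1 library left out.

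**Figure D2:**
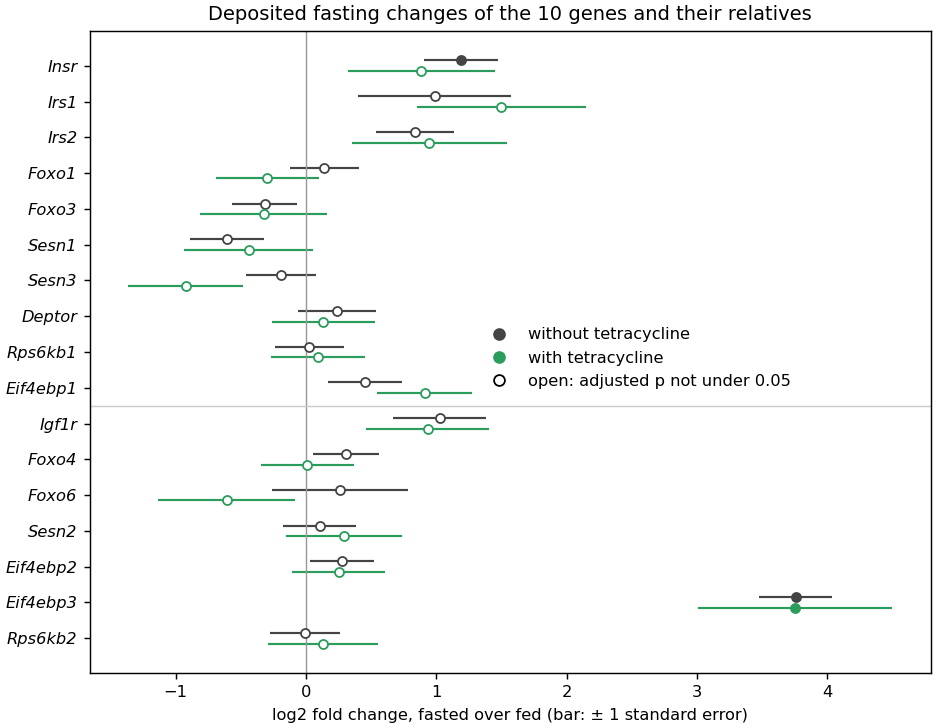
Deposited log2 fold changes, fasted over fed (x axis), with ± 1 standard error, for the 10 genes (above the line) and 7 relatives (below it), without (grey) and with (green) tetracycline; filled points have an adjusted p under 0.05. Insr is filled without tetracycline, and Eif4ebp3, at 3.76 and 3.75, is filled in both tables.

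Sesn1 (ENSMUSG00000038332.14) and Sesn3 (ENSMUSG00000032009.9) encode sestrins, stress-induced proteins that hold back mTORC1 when amino acids are short, and both are known FoxO targets in other tissues. Sesn1 counted 4201 and 2870 in the fasted and 5439 and 5337 in the fed libraries without tetracycline. Fasted values were lower without overlap, and the change of -0.61 (SE 0.28, adjusted p 0.378, from the authors' deposited table) was not called. With tetracycline the counts were 2614 and 5437 fasted and 6188 and 4730 fed. These overlap, and the log2 ratio ran from -1.06 to -0.01 according to which library was left out, around -0.44 (SE 0.49, adjusted p 0.9999, from the authors' deposited table).

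Without tetracycline Sesn3 had 1236 and 1094 normalized counts fasted and 1426 and 1233 fed, which just overlap. With tetracycline it had 1347 and 1176 fasted and 3012 and 1770 fed, with both fasted libraries below both fed ones. The changes were -0.19 (SE 0.27, adjusted p 0.913) and -0.92 (SE 0.44, adjusted p 0.868), as listed in the authors' deposited tables. The third sestrin, Sesn2, had 0.11 (SE 0.28) and 0.29 (SE 0.45) and was called in neither of the authors' deposited tables.

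Lymphocyte markers were lower in fasted libraries beside Sesn1, Sesn3 and Foxo3. Of 10 markers, 5 were called lower without and 0 with tetracycline, all 10 had negative changes in each table, and their median log2 change was -1.41 and -1.75. Summed over the 9 markers with library values in both tables, they stood at 6008 and 11939 fasted against 14472 and 19000 fed, and at 19556 and 3240 against 59131 and 15569 with tetracycline, where the groups overlapped. Erythrocyte (4 of 4 tested), stromal (3 of 8) and myeloid markers (1 of 7) were also called lower without tetracycline. No marker among the 9 was at 0 in any library, and the fed library highest for lymphocyte markers with tetracycline was also the highest for Foxo1, Foxo3, Sesn1 and Sesn3. In the fasted pair with tetracycline the order was the reverse for 3 of these: the library with 0.17 times the lymphocyte markers held 2.08 times the Sesn1, 2.02 times the Foxo3 and 1.33 times the Foxo1. Sesn3 stood at 0.87 times there. The part of lymphocytes in these values was not tested. Paneth cell markers went the other way, beside Insr: without tetracycline 5 of 8 were called higher in fasted mice, and the 3 of 8 with library values summed to 34280 and 35411 fasted against 13119 and 11079 fed. With tetracycline these sums were 63177 and 11379 fasted against 10118 and 15677 fed, which overlap, with 1 fasted library far above the rest. There 0 of 8 were called, but all 8 were positive in both tables and the median log2 change was 1.10 without and 1.19 with it. Of the other epithelial types, enterocyte markers had medians of 0.59 and 0.90 (1 of 8 called higher without tetracycline) and tuft markers 0.83 and 0.54, with no negative value among those tested. Stem cell markers had medians of 0.45 and 0.35 with no call, and enteroendocrine markers -0.16 and 0.40 with 1 of 8 called lower without tetracycline. All 10 proliferation markers were negative in both tables (medians -0.64 and -0.50, with 1 called lower without tetracycline). Goblet markers had medians of -0.27 and 0.29, and 1 of 8 was called lower without tetracycline. The part of these cell types in the change of Insr was not tested. In bulk RNA, fewer cells of a type and less RNA per cell cannot be told apart. The epithelial markers were abundant, with 3 of 9 summing to between 30235 and 49227 in all 8 libraries.

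Deptor (ENSMUSG00000022419.17), an inhibitor bound to mTOR, and Rps6kb1 (ENSMUSG00000020516.16), the S6 kinase that mTORC1 activates, showed no called change. Deptor stood at 6729 and 10169 normalized counts fasted and 8078 and 6267 fed, and with tetracycline at 8410 and 8586 against 6357 and 9142. The groups overlapped in both tables, with changes of 0.24 (SE 0.30) and 0.13 (SE 0.39), as listed in the authors' deposited tables. Rps6kb1 stood at 2210 and 2344 fasted against 2464 and 2012 fed, and 2403 and 2361 against 2065 and 2399 with tetracycline. Its changes were 0.02 and 0.09, as listed in the authors' deposited tables, and the 95% intervals of its fold spanned 0.71 to 1.46 and 0.65 to 1.75. Its relative Rps6kb2 had -0.01 (SE 0.27) and 0.13 (SE 0.42), as listed in the authors' deposited tables. In addition, 23.7% of the exonic bases of Rps6kb2 lie opposite exons of the lymphocyte gene Ptprcap, so reads of the 2 genes cannot be told apart there.

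Eif4ebp1 (ENSMUSG00000031490.7) encodes 4E-BP1, which holds the cap-binding protein and blocks translation until mTORC1 phosphorylates it. Its normalized counts were 1655 and 1289 fasted and 983 and 1169 fed without tetracycline, and 1549 and 1414 against 785 and 792 with it. Both fasted libraries exceeded both fed libraries in each table, and with tetracycline the paired values lay close together. The changes were 0.45 (SE 0.28, adjusted p 0.628) and 0.91 (SE 0.37, adjusted p 0.586), as listed in the authors' deposited tables, or 1.37-fold and 1.88-fold. Neither was called, and no left-out library took the log2 ratio below 0.26 without or 0.84 with tetracycline.

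Its relative Eif4ebp3, encoding 4E-BP3, moved far more. Without tetracycline it rose from 316 and 372 normalized counts in the fed to 5272 and 4011 in the fasted libraries. The authors' deposited table gave 3.76 (SE 0.28, adjusted p 2.46e-36), a 13.5-fold rise and the smallest adjusted p of all pathway genes. With tetracycline the fed libraries held 572 and 394 and the fasted 1881 and 11140, and the rise was 3.75 (SE 0.75, adjusted p 0.000264, from the authors' deposited table). Leaving out the higher fasted library there moved the log2 ratio to 1.96, still 3.89-fold higher. Eif4ebp3 shares 67.3% of its annotated exonic bases with AC115631.1, a gene on the same strand, so the division of reads between them is uncertain. The change of that gene was 0.07 (SE 0.28) and 0.02 (SE 0.38), as listed in the authors' deposited tables.

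Eif4ebp2, the third repressor, had 16887 and 18220 fasted against 15518 and 13488 fed, and 18288 and 17826 against 14009 and 16326 with tetracycline. Its groups did not overlap, yet its changes were small, at 0.28 (SE 0.25) and 0.25 (SE 0.36), as listed in the authors' deposited tables, and not called. Per kilobase of exon, the fed mean without tetracycline was 490 normalized counts for Eif4ebp1, 2507 for Eif4ebp2 and 462 for Eif4ebp3. The fasted means were 670, 3035 and 6239, so Eif4ebp3 held the highest level of the 3 in both of these fasted libraries (7086 and 5392) and not in the fed ones. With tetracycline the fed means were 359, 2622 and 649 and the fasted means 675, 3122 and 8751. There the order rested on 1 library, since the first fasted library held 2528 per kilobase of Eif4ebp3 against 3162 of Eif4ebp2 and the second 14973 against 3082.

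**Figure D3:**
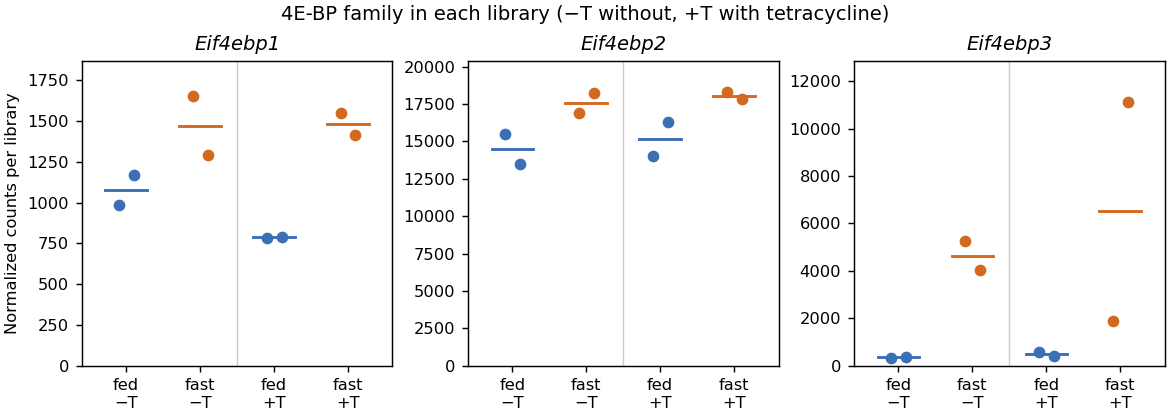
Normalized counts (y axis, linear, from 0, a separate scale per panel) of the 3 4E-BP genes in every library, without (−T) and with (+T) tetracycline; points are libraries and lines the means of 2. Eif4ebp3 is at 316 to 572 in the fed libraries and 1881 to 11140 in the fasted ones, while Eif4ebp1 and Eif4ebp2 shift much less.

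Counting library order over the 10 genes, 4 had both fasted libraries above both fed libraries without tetracycline (Insr, Irs1, Irs2 and Eif4ebp1) and 2 below (Foxo3 and Sesn1). Over the 12229 genes with a mean of 50 to 10000 these orders occurred in 20.2% and 25.1%. With tetracycline 2 genes lay above (Irs1 and Eif4ebp1) and 1 below (Sesn3), against 15.3% and 15.7% of 12494 genes. Irs1 and Eif4ebp1 thus kept the order in both tables, as did 6.4% of the 12043 genes within that range of means in both. Below in both lay 0 of the 10, against 7.59% of these genes. With 10 genes these counts describe the libraries only.

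The rest of the pathway was read from 9 lists holding 131 genes, all of them listed in both tables. Without tetracycline 6 of 128 tested genes rose and 0 fell, and with it 3 of 126 rose and 0 fell. Over all genes 1.06% were called higher and 1.22% lower without tetracycline, and 0.333% and 0.267% with it. The median log2 change over all lists was 0.06 and 0.01. The 6 were Insrr, Pdk4, Pck1, G6pc, Eif4ebp3 and Ddit4, and the 3 were Pdk4, Eif4ebp3 and Ddit4.

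Ddit4 encodes REDD1, which is induced by stress and glucocorticoids and restrains mTORC1 through TSC. It rose by 1.07 (SE 0.27, adjusted p 0.00532) without and by 1.82 (SE 0.35, adjusted p 0.000142) with tetracycline, as listed in the authors' deposited tables. The libraries held 3749 and 4360 fasted against 1716 and 2134 fed, and 6526 and 7161 against 1943 and 1924 with tetracycline. Unlike those of Insr and Irs2, its 2 fasted libraries with tetracycline lay close together. Of the other genes in the list of AMPK and stress input, 0 of 9 were called in either table.

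Lists for the steps between receptor and mTORC1 held no called gene. In the PI3K and AKT list 0 of 20 genes passed in each table, with 10 negative changes without and 17 with tetracycline (medians 0.00 and -0.16). The mTOR complexes had 0 of 10, TSC and Rheb 0 of 5, and the amino acid sensors that feed mTORC1 0 of 27 in each table (DESeq2, as listed in the authors' deposited tables). With 2.27% and 0.6% of all genes called, lists of this size would hold fewer than 1 call each at that share, so these zeros do not set them apart. At an unadjusted p under 0.05 the PI3K and AKT list had 2 and 3 genes and the other 3 lists none, where 10.8% and 5.34% of all genes passed. The medians of the amino acid sensors were -0.16 and -0.08, with 17 of 27 genes negative in each table.

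**Figure D4:**
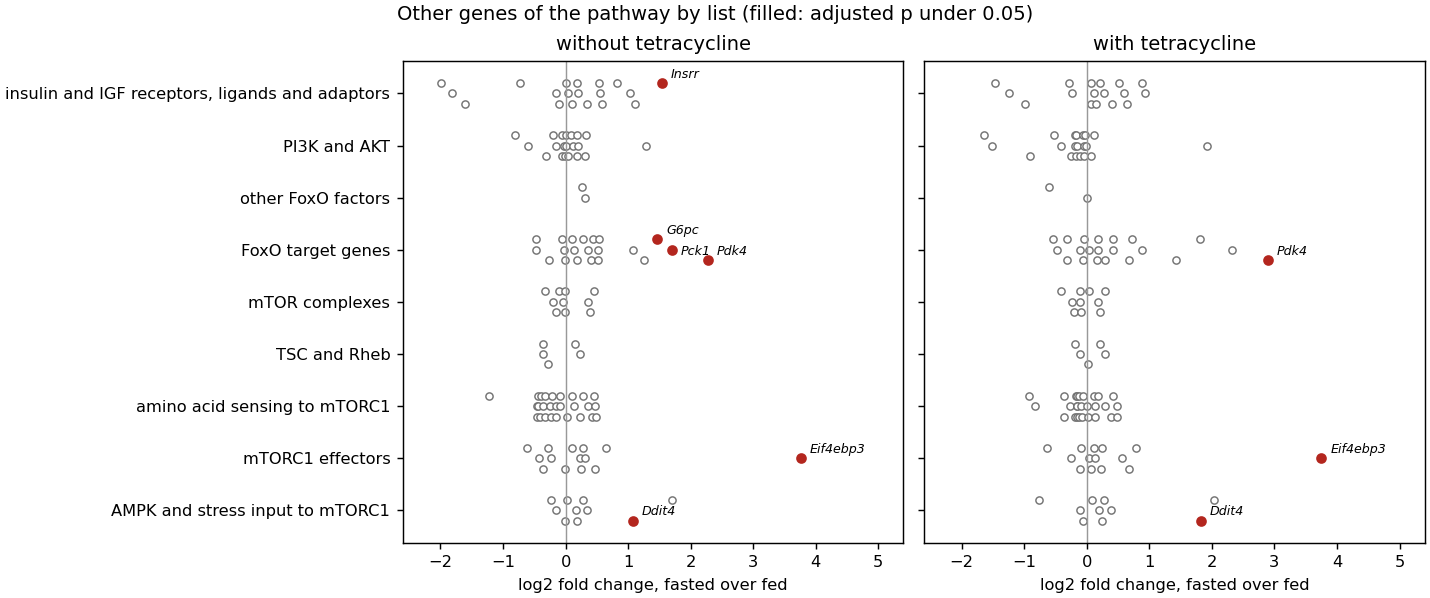
Deposited log2 fold changes, fasted over fed (x axis), of the tested genes in 9 pathway lists (rows), without tetracycline on the left and with it on the right; each point is a gene, and filled points, named, have an adjusted p under 0.05. All filled points lie to the right of 0. The rows for PI3K and AKT, other FoxO factors, mTOR complexes, TSC and Rheb and amino acid sensing have none on either side.

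Whether tetracycline altered the fasting change of the 10 genes was tested gene by gene as the difference of the 2 deposited changes over its standard error (Wald test, adjusted by Benjamini-Hochberg over 17571 genes). Of the 10, 0 were called, and at an unadjusted p under 0.05 there were also 0. Over all genes 0.0228% and 1.05% passed. The largest differences, with minus without tetracycline, were -0.73 for Sesn3 (95% interval -1.75 to 0.28) and 0.51 for Irs1 (-1.20 to 2.23). Eif4ebp1 differed by 0.46 (-0.45 to 1.36) and Insr by -0.30 (-1.54 to 0.93). All adjusted p were 0.99997. Each of these 4 intervals reaches past 1 log2 unit in at least 1 direction. The sign of the change was the same in both tables for 9 of the 10 genes.

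Levels with and without tetracycline could only be set side by side, because the tables were scaled separately. The ratios were centred on the median of genes with a mean of at least 50 and were not tested. Irs2 had the highest ratio in fasted mice, with 1.77 times the level under tetracycline, but this rested on 1 library: without the second fasted library with tetracycline the ratio was 0.84. In fed mice Irs2 stood at 1.71 times, and between 1.45 and 2.08 with any 1 library left out. Sesn3 was at 1.78 times in fed mice (1.32 to 2.24) and 1.03 times in fasted mice. Eif4ebp1 was at 0.72 times in fed mice (0.67 to 0.79) and 0.96 times in fasted mice. For the other 7 genes the ratios lay between 0.79 and 1.28 in both states. Without that same fasted library the fasted ratio of Insr moved from 0.94 to 0.53, that of Foxo3 from 1.23 to 0.81 and that of Sesn1 from 1.08 to 0.70. Across all genes the central 80% of log2 ratios ran from -0.33 to 0.49 in fed and from -0.33 to 0.28 in fasted mice.

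The 2 fasted libraries with tetracycline differed from each other in several of these genes. The second held 3.24 times the Irs2, 2.57 times the Insr, 2.08 times the Sesn1 and 2.02 times the Foxo3 of the first. Eif4ebp3, G6pc and Pdk4 were 5.92, 5.35 and 3.61 times as high in it. Deptor, Rps6kb1, Eif4ebp1 and Sesn3 differed by 0.87 to 1.02 times. Over all 12460 genes compared, the central 80% of these ratios ran from 0.42 to 1.94. In the same library the summed lymphocyte markers stood at 0.17 times and 3 of 8 Paneth cell markers at 0.18 times the level of the first library (11379 against 63177). Erythrocyte, endothelial, myeloid and stromal marker sums were at 0.19, 0.29, 0.30 and 0.36 times. The 6 stem cell markers with library values were at 0.41 and the epithelial markers at 0.86 times. Proliferation, goblet, pancreatic acinar, tuft and enteroendocrine marker sums were at 0.64 to 0.89 times. The part of these cell types in the values was not tested, and leaving this library out leaves 1 fasted library for the comparison.

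**Figure D5:**
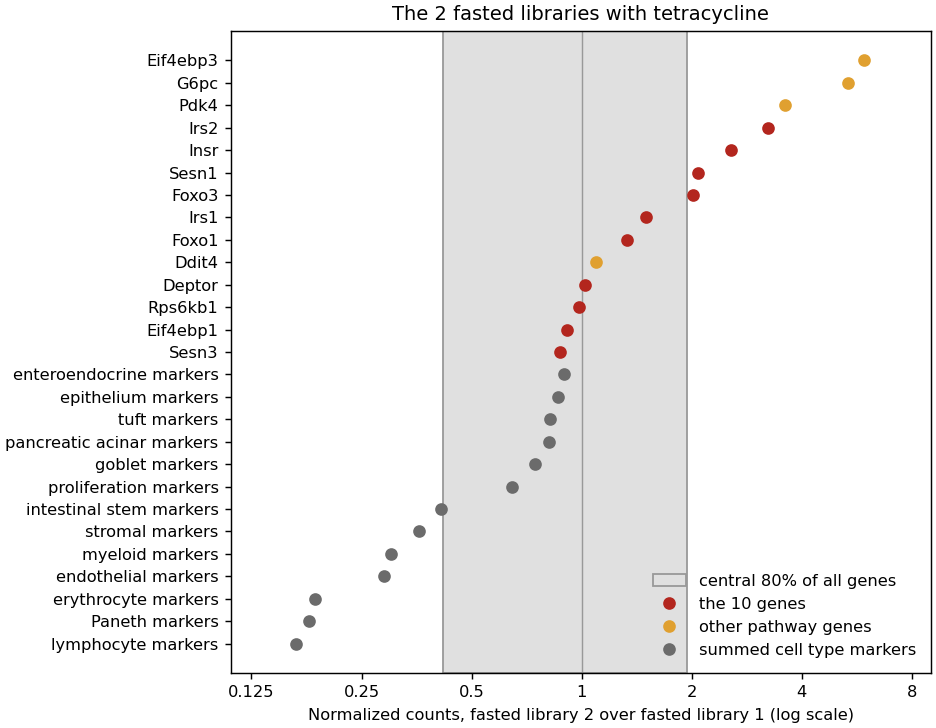
Ratio of normalized counts in the second over the first fasted library with tetracycline (x axis, log scale). Shown are the 10 genes (red), 4 other pathway genes (orange) and summed cell type markers (grey). Each sum holds only the markers with library values in both tables, and enterocyte markers had none. The grey band holds the central 80% of all genes compared. Of the 10 genes, Irs2, Insr, Sesn1 and Foxo3 lie right of the band at 2.02 to 3.24. Left of it lie lymphocyte, Paneth and erythrocyte markers at 0.17 to 0.19, and endothelial, myeloid, stromal and stem cell markers at 0.29 to 0.41.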

How the data were processed

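The authors used Salmon and DESeq2 on mm10, per the submitters' processing notes, with versions not given in the sources used here. Crypts were detached by shaking and trypsinised before RNA extraction, and the library kit kept no strand, per the labels' protocols. The deposited identifiers carry a version 1 higher than GENCODE M21 for 95.6% of genes, and 99.3% match without version. Gene coordinates are therefore not given, and the coordinates printed are those of the RefSeq promoter sequences on GRCm38.p6, matched by symbol.

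The authors' mean is a signal, the average of counts over size factors. Their fold change and standard error are on the log2 scale, their statistic is a score, and their p-values were adjusted in the deposited tables. The tables hold comparisons, not samples, so the deposited tests were used. There are 0 unused per-sample columns.

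A mean is a sum of whole counts times 4 fixed steps. All genes with a mean of 50 to 10000 decoded to 1 set of counts (12229 and 12494 genes). Listed genes with a mean of 10000 to 30000 were decoded as well, 19 of 21 without and 15 of 19 with tetracycline; among those printed, Eif4ebp2, Pck1 without and Pdk4 with tetracycline had several possible sets and rest on the fold change to choose. The fold change served as a loose window and to choose between sets, and refitted changes differed from deposited ones by a median of 4.47e-07 and 9.35e-07. Library values cannot be tied to labelled samples and carry no test.

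Group means for the tetracycline ratios were rebuilt from mean and fold change, with pseudocount 1. The Wald test and decoding were tested on simulated data. The Wald simulation drew its noise from the deposited standard errors. In the data the robust SD of the difference statistic was 0.71, below what the test assumes, so the simulation does not show how the test performs here. Exon lengths and overlaps come from GENCODE M21. Per-kilobase values and overlap shares therefore rest on gene models that may differ from those used for counting. Python 3.11.15, numpy 2.4.6, pandas 2.3.3 and scipy 1.17.1 were used.

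The 10 genes, the lists and the tests were chosen with earlier results of these data known. Genes named beyond the 10 were relatives and, per list and table, up to 4 called genes, and the promoter pair was noticed in the sequences. Genes nearest to a member called in both tables were to be named, and 0 members met that. Alternatives were other adjustments, thresholds, centrings, pseudocounts and left-out libraries.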

Additional observations from a re-analysis of the deposited data

How the results depend on the processing

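The count of the 10 genes called stayed at 1 without tetracycline, 0 with it and 0 for their difference under every adjustment, threshold and centring tried. At an adjusted p under 0.01 the whole tables had 246 and 68 calls in place of 411 and 108. The difference test called 1 gene among those with a mean of at least 50, and 32 with the statistic divided by its robust SD, in place of 4. With the scaling as deposited, 8 rather than 5 of the 10 genes had a higher level with tetracycline in fasted mice; the medians removed were 0.02 in fed and 0.07 in fasted mice. Pseudocounts of 1 and 10 moved none of the 10 genes by more than its standard error. Of 80 values with a library left out, 7 moved by more than the standard error, 5 of them with tetracycline. Level ratios have no standard error of their own, so that of the gene's difference of fasting changes served as a yardstick. Of 80 level ratios with a library left out, an alternative chosen after seeing the data, 4 moved by more than that. No paired analysis was possible because the labels give no replicate numbers. Each side has 2 libraries, and Irs1, with 24 to 78 reads in a library, had larger standard errors (0.58 and 0.65) than the other 9 genes.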

Other observations

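The arrangement seen in the Irs1 and Irs2 promoters, TGTTTTG starting 4 to 7 bases after the start of CACGTG, was found in 9 of 32851 promoters (0.0274%), a spacing chosen after these promoters had been seen. The genes with a value in the tables were Irs1, Irs2, Irs4, Klf11, Pcbp1 and Pyroxd1. Irs1 and Irs2 set the spacing and were bound to be found, so their presence among these genes shows nothing. Irs4 was barely read, with means of 6.02 and 3.99 normalized counts. Klf11, a Krüppel-like transcription factor, changed by 1.35 (SE 0.34, adjusted p 0.00649) without and 0.97 (SE 0.53, adjusted p 0.999) with tetracycline, as listed in the authors' deposited tables. Pcbp1 and Pyroxd1 were not called, with changes of -0.26 and 0.18 without and -0.19 and -0.04 with tetracycline, as listed in the authors' deposited tables.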
